A study of Mus musculus with 7 samples.

Results

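Upper layer 2/3 excitatory neurons were taken from the 7 single-cell count tables as cells with at least 2 unique molecular identifiers (UMIs) of Slc17a7 and at most 1 UMI of Gad1 and Gad2 together. They also had to show at least 2 of the 4 transcripts Cux2, Otof, Calb1 and Lamp5, each with at least 1 UMI, and no UMI of Foxp2, Fezf2 or Rorb. The rule found 2454 cells, which are 7.44% of all 32985 cells and 23.6% of the 10396 excitatory neurons (the cells that meet the Slc17a7 and Gad conditions). The cells were thus chosen by their measured counts of 10 genes. They came from 2 regions of B6129SF1/J mice, the ventromedial part of the prefrontal cortex (PFC) and motor cortex (MC), at postnatal day 30, kept in 12 h of light and 12 h of dark. All mice carried Opn4-Cre, in which Cre follows the melanopsin gene of intrinsically photosensitive retinal ganglion cells. The control group (CTRL) had the genotype Opn4-Cre/+; Brn3b-+/+, and the ablated group (DTA) had Opn4-Cre/+; Brn3b-zDTA/+. In the latter, diphtheria toxin A is made only in cells that have both Cre and Brn3b. Photosensitive ganglion cells without Brn3b, and ganglion cells without Cre, are thus left. The PFC has 2 CTRL and 3 DTA libraries, with 155 and 654 cells of the layer 2/3 class in CTRL and 103, 388 and 332 in DTA. The MC has 1 library of each genotype, with 610 cells in CTRL and 212 in DTA. The labels do not tie libraries to single animals, so the p-values below measure only the spread between these libraries, which may be technical.

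Layer 2/3 pyramidal neurons are the glutamatergic cells just under the cortical surface layer. They send axons to other cortical areas in the same and the opposite hemisphere, and thus carry information between areas. Slc17a7 encodes the vesicular glutamate transporter VGLUT1, Cux2 is a transcription factor of upper-layer neurons, Otof encodes the calcium sensor otoferlin, Calb1 the calcium-binding protein calbindin and Lamp5 a membrane protein of upper-layer and some inhibitory neurons. Rorb is known from layer 4 and layer 5 neurons, and Fezf2 and Foxp2 from layer 5 and layer 6 neurons.

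The summed UMIs of the layer 2/3 cells ranged from 580426 in PFC DTA replicate 1 to 4898281 in PFC DTA replicate 2. The median per cell was 11293 and 5042 UMIs in the PFC CTRL libraries, 5586, 11836 and 9186 in the PFC DTA libraries, and 6695.5 (CTRL) and 16721 (DTA) in the MC libraries. Pairs of libraries shared between 7 and 92 cell barcodes, and at most 1 of these in any pair was a layer 2/3 cell in both. Doublet scores marked 69 of the 2454 cells (2.81%), which were kept. PFC DTA replicate 3 stood apart in Malat1, a nuclear RNA, at 54491 CPM (counts per 1000000 UMIs, over the summed UMIs of the layer 2/3 cells of a library) against 21860 to 24686 in the other 6 libraries. Transcripts of red blood cells and neutrophils summed to 3593 CPM in MC DTA and 1224 CPM in PFC CTRL replicate 2, against 129 to 251 CPM in the other 5. The 11 markers of inhibitory neurons summed to 25.4 to 109 CPM in layer 2/3 cells and to 689 to 1493 CPM in all cells of a library.

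The marker genes of the rule describe the cells and test nothing. Calb1 was detected in 87.9% to 97.6% of the layer 2/3 cells of a library, Lamp5 in 84.3% to 96.7%, Cux2 in 45.6% to 74.1% and Otof in 3.11% to 30.4%. The most frequent sets were Cux2, Calb1 and Lamp5 together (910 cells, 37.1%) and Calb1 with Lamp5 (867 cells, 35.3%), and 180 cells (7.33%) had all 4. The label therefore rests mostly on Calb1 and Lamp5. Otof stood at 20.2 and 22.6 CPM in PFC CTRL, 13.8, 30.2 and 21.3 CPM in PFC DTA, and 4.79 (CTRL) and 12.3 CPM (DTA) in the MC. Just inside the rule, 1250 cells had exactly 2 of the 4 markers. Just outside, 1328 cells met every other condition with 1 marker and 1889 with none. The 1250 cells had Calb1 at 304 to 623 CPM by library and the 1328 cells at 35.1 to 186 CPM, while Slc17a7 stood at 663 to 1226 CPM in the former and at 887 to 1683 CPM in the latter. A further 607 cells failed only through Rorb and 335 only through a single Slc17a7 UMI, and 375 of the layer 2/3 cells had exactly 2 Slc17a7 UMIs. Detection of a marker depends on the depth of a cell, so the rule does not admit cells equally in libraries of different depth.

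Compared with the other 7942 excitatory neurons of the same libraries, layer 2/3 cells carried more transcript of most listed upper-layer genes and less of most listed deep-layer genes. The rule made this contrast, so it is given without a test. Of 16 upper-layer identity genes at 50 CPM or more, 12 had a higher mean (list median log2 1.05). In all 7 libraries 4 of the 16 were at least 2-fold higher and 1 at least 2-fold lower. Among listed layer 6 genes 1 of 6 had a higher mean, and among listed layer 5 genes 1 of 4. At least a 2-fold higher level in all 7 libraries was seen for 22 of 4231 genes at 50 CPM or more (0.52%), 3 of them genes of the rule, and a 2-fold lower level for 44 (1.04%), 2 of them genes of the rule. Nectin3, an adhesion molecule of the nectin family, stood at 67.2 to 97.4 CPM by library in layer 2/3 cells and at 9.57 to 27.5 CPM in the other excitatory neurons, a mean log2 ratio of 2.18. Wfs1, which encodes wolframin of the endoplasmic reticulum, was at 58.6 to 122 CPM against 18.4 to 36.7 CPM. Rasgrf2, an exchange factor for Ras, was at 121 to 247 CPM against 36.8 to 64.0 CPM. In all 3 genes the lowest library of the layer 2/3 cells lay above the highest of the others. The choice of genes by their ratio in every library makes such a separation likely. The further leading genes were Pcdh8 (log2 1.92), a protocadherin, Prex1 (1.63), an exchange factor for Rac, Enpp2 (1.56), the secreted enzyme autotaxin, Metrnl (1.54), Rfx3 (1.53), Fam84a (1.46) and Tubgcp2 (1.43).

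Several of the genes lowest in layer 2/3 cells are known from layers 5 and 6. Nxph3, a neurexophilin, stood at 0 to 5.94 CPM against 36.8 to 87.3 CPM in the other excitatory neurons. Hs3st4, a heparan sulfate sulfotransferase of layer 6 cells, was at 1.34 to 10.3 CPM against 56.1 to 135 CPM. Grik3, a kainate receptor subunit, was at 0 to 6.22 CPM against 33.5 to 61.2 CPM. Pcp4, a calmodulin-binding protein, was at 94.8 to 474 CPM against 1835 to 4369 CPM. No library of the 2 classes overlapped in these 4 genes, which were chosen for their low ratio in every library. Rprm (log2 -3.35), Tox (-2.91), Bcl11b (-2.78), a transcription factor of neurons that project below the cortex, Myl4 (-2.78), Sulf2 (-2.66) and Pitpnc1 (-2.61) followed.

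**Figure D1:**
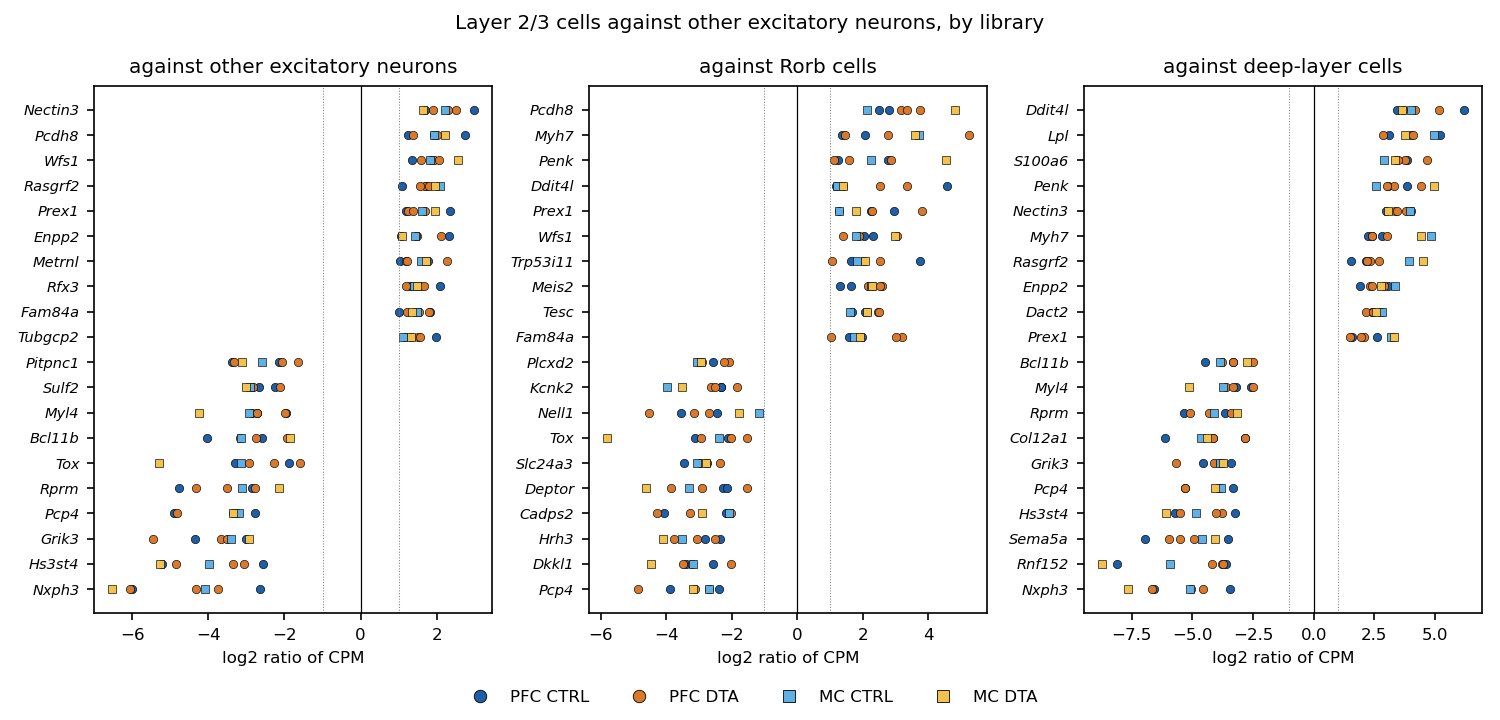
Log2 ratio of CPM in layer 2/3 cells over 3 sets of excitatory neurons of the same library (x axis), for the 10 genes with the largest mean ratio each way (y axis), genes of the rule left out. Each point is 1 library, circles are PFC and squares MC, dotted lines mark 2-fold, and all points of a gene lie beyond the 2-fold line on 1 side because the genes were chosen so.

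Narrower sets of neurons were compared in the same way, again as a description. Against the 592 Rorb cells (Rorb detected, Foxp2 and Fezf2 absent, at most 1 of the 4 upper markers), 15 of 4288 genes were at least 2-fold higher in all 7 libraries (0.35%) and 28 were lower (0.653%). Here Pcdh8 led (log2 3.21), followed by Myh7 (2.89), a myosin heavy chain, and Penk (2.33), the precursor of the enkephalin opioid peptides. Penk stood at 31.9 to 69.2 CPM in layer 2/3 cells and at 2.002 to 21.5 CPM in Rorb cells. Meis2 (2.10), a homeobox factor, and Tesc (2.08), a calcium-binding protein, were the genes with the highest levels in layer 2/3 cells among the 10, at 208 to 428 CPM and 205 to 335 CPM. On the low side were Pcp4 (-3.25), Dkkl1 (-3.19), the histamine receptor Hrh3 (-3.15), Cadps2 (-2.97), a factor for dense-core vesicle release, Deptor (-2.95), an inhibitor of mTOR, and Kcnk2 (-2.73), the potassium leak channel TREK-1. Rorb cells numbered only 17 to 198 per library, and Pcdh8 and Myh7 were at 0 in the Rorb cells of at least 1 library, so their ratios depend on the small count added before taking logs.

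Against the 3095 deep-layer cells (Foxp2 or Fezf2 detected, at most 1 of the 4 upper markers), 63 of 4300 genes were at least 2-fold higher in all 7 libraries (1.47%) and 71 were lower (1.65%). Ddit4l had a mean log2 ratio of 4.33, Lpl, lipoprotein lipase, 3.996, S100a6, a calcium-binding protein, 3.62, and Penk 3.59. Of the potassium channel genes, Kcnip2 (2.02) and Kcnv1 (1.28) were higher and Kcnip3 (-1.57) and Kcnk2 (-2.71) lower in all 7 libraries. Gabrd, the delta subunit of extrasynaptic GABA-A receptors, was higher (1.72), as were Cacng3 (1.72), an auxiliary subunit of AMPA receptors, and Camk2n1 (1.49), an inhibitor of CaM kinase II. Sstr2, a somatostatin receptor, was lower (-3.02), as was Adora1 (-1.83), the adenosine A1 receptor. Of the 29 genes listed as upper-layer identity genes, 16 reached 50 CPM in this comparison, and 6 of them were 2-fold higher in all 7 libraries (Cux1, Rasgrf2, Wfs1, Nectin3, Enpp2 and Penk) and 1 lower (Plcxd2). The list had a median log2 ratio of 1.24, against -0.01 over all genes.

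The layer 2/3 cells were also split by single markers, as a description. When cells with and without Otof were compared within each library, 1 of 4110 genes differed by at least 2-fold in all 7 libraries in the higher direction (0.0243%) and 0 in the lower (0.0%), and the 1 gene was Otof. When cells with and without Calb1 were compared, 1 of 4339 genes was higher (0.023%), Calb1 itself, and 0 were lower (0.0%). These splits rest on few cells in some libraries, since 3.11% of the layer 2/3 cells of MC CTRL had Otof and 97.6% of those of MC DTA had Calb1. Below the 2-fold limit, gene lists stood to 1 side in the Calb1 split. Among genes at 50 CPM or more, 19 of 19 immediate early genes (median log2 0.28 against 0.01 over all genes) and 11 of 13 heat shock genes (0.47) had a higher mean in cells with Calb1. By contrast, 0 of 11 mitochondrially encoded genes (-0.44), 0 of 7 NMDA and metabotropic glutamate receptor genes (-0.47) and 2 of 26 adhesion and guidance genes (-0.35) did. All 4 blood cell genes at that level were also higher in cells with Calb1 (0.95), and the part of other RNA in this split was not tested. In the Otof split the medians of these lists, the blood cell genes apart, lay between -0.20 and 0.02. There 0 of 4 blood cell genes had a higher mean in cells with Otof (median -1.65). The part of other RNA was not tested in that split either.

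The share of layer 2/3 cells among excitatory neurons was then compared between genotypes and areas. It was 20.7% and 19.96% in PFC CTRL. In PFC DTA it was 17.7%, 24.3% and 24.3%. The MC libraries had 29.0% (CTRL) and 29.5% (DTA). Because the rule depends on depth, each cell was also thinned to 2000 UMIs, leaving out shallower cells, and classified again. The share was then 8.63% and 9.44% in PFC CTRL and 9.38%, 7.07% and 12.0% in PFC DTA, so that the CTRL libraries lay inside the DTA range. The means were 9.03% ± 0.572 (SD, n = 2) and 9.47% ± 2.45 (SD, n = 3), a difference of 0.43 percentage points (exact two-sided permutation test, p = 0.8, where this design allows no p below 0.1). The size and sign of this difference moved with the settings. It was 1.86 percentage points at 1500 UMIs, 2.38 at 3000 UMIs, 1.73 with all UMIs and 1.56 when 1 marker sufficed. It was -0.40 when the share was taken of all cells, 0.03 without PFC CTRL replicate 1, 0.84 without PFC CTRL replicate 2, 1.64 without PFC DTA replicate 2 and -0.81 without PFC DTA replicate 3. Excitatory neurons under 2000 UMIs, which were left out, numbered 8 and 459 in PFC CTRL, and 82, 28 and 134 in PFC DTA. In the MC they numbered 195 (CTRL) and 40 (DTA). The Slc17a7 condition was applied again after thinning, so the excitatory neurons counted fell further. In PFC CTRL they went from 747 and 3277 to 452 and 1706. In PFC DTA they went from 581, 1599 and 1368 to 256, 934 and 719. In the MC they went from 2105 to 1219 (CTRL) and from 719 to 459 (DTA). The part of this loss in the shares was not tested.

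The MC shares after thinning were 15.6% (190 of 1219 cells, 95% exact Clopper-Pearson interval 13.6% to 17.7%) and 17.6% (81 of 459 cells, 14.3% to 21.4%), and both lay above all 5 PFC libraries. Lamp5, a marker of the rule, was itself at 506 and 583 CPM in MC layer 2/3 cells and at 247 to 432 CPM in the PFC, and its part in the share was not tested. The intervals cover counting error only. The mean was 16.6% ± 1.46 (SD, n = 2) in the MC and 9.29% ± 1.77 (SD, n = 5) in the PFC, a difference of 7.32 percentage points (exact two-sided permutation test, p = 0.0476, the smallest that the 21 possible choices of 2 libraries allow). This test was chosen after the values were seen. With all UMIs the difference was 7.84 percentage points (exact permutation p = 0.0476). At 1500 UMIs the areas overlapped, since MC CTRL had 8.98% and PFC DTA replicate 3 had 9.91%. The areas also overlapped at the main thinning depth when at least 1 of the 4 markers sufficed. MC CTRL then had 32.5% and PFC DTA replicate 3 had 33.4%.

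**Figure D2:**
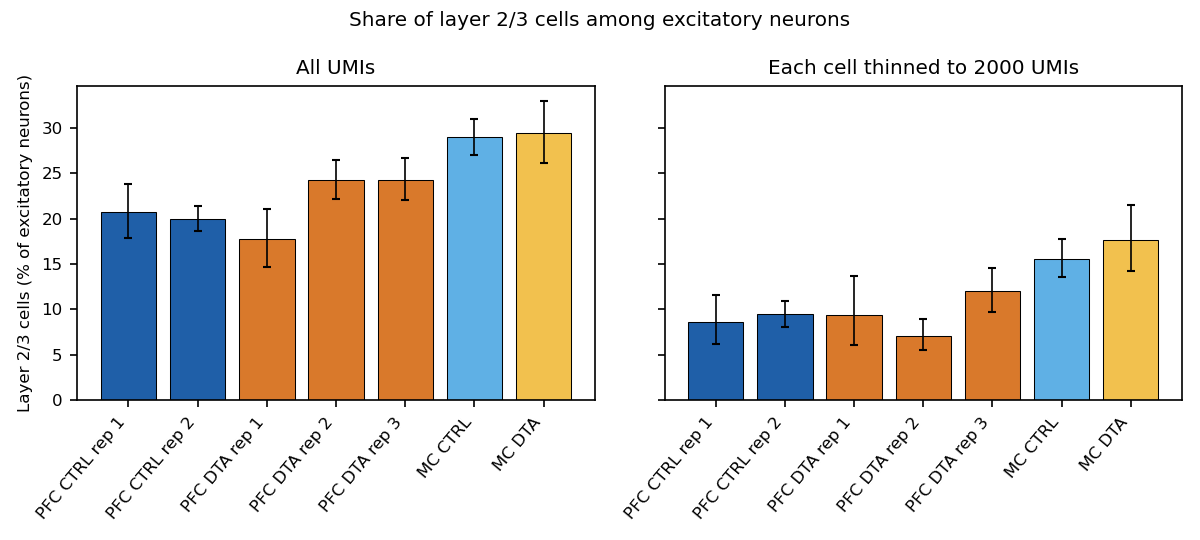
Layer 2/3 cells as a percentage of excitatory neurons (y axis) in each library (x axis), with all UMIs and after thinning every cell to 2000 UMIs. Bars are shares and lines are 95% exact binomial intervals, and the 2 MC libraries, at 15.6% and 17.6%, stand above the 5 PFC libraries, at 7.07% to 12.0%, in the thinned panel.

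Between the areas, the layer 2/3 cells differed in both directions. With genotype as a term in edgeR's quasi-likelihood test, 305 of 12053 genes were higher in the MC (2.53%) and 229 lower (1.9%) at an adjusted p under 0.05 (Benjamini-Hochberg over all genes), together 534 genes (4.43%). Of these, 2 are genes of the rule (Otof and Lamp5), which are given as description only. The area comparison rests on 2 MC libraries. Without MC CTRL 75 genes passed and without MC DTA 77, and 42 of the 534 passed in both fits, while all 534 kept their direction in both. Without PFC CTRL replicate 2, 337 genes passed. Of the 20 genes named for their fold change, 17 passed without either MC library. MC DTA had the most UMIs per cell (median 16721) and the most transcript of blood cells (3593 CPM), and with the median UMIs per cell as a covariate, chosen after seeing the data, 412 genes passed. The part of blood RNA in the area difference was not tested.

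Genes higher in the MC included secreted and signalling proteins and transcription factors. Frzb, a secreted antagonist of Wnt signalling, stood at 100.8 and 112.7 CPM in the 2 MC libraries and at 10.3 to 26.3 CPM in the PFC libraries (log2 2.63 ± 0.20 SE, adjusted p = 2.2e-05). Cdh6, a cadherin, was at 96.9 and 56.1 CPM against 8.20 to 18.4 CPM (log2 2.45 ± 0.21, adjusted p = 2.93e-05). Ppp1r1b, which encodes the phosphatase inhibitor DARPP-32, was at 132.5 and 200.04 CPM against 33.6 to 49.96 CPM (log2 2.10 ± 0.15, adjusted p = 1.19e-05). Sox5, a transcription factor of the Sox family, was at 48.6 and 58.8 CPM against 9.58 to 17.2 CPM (log2 1.94 ± 0.20, adjusted p = 8.12e-05). The areas did not overlap in any of these genes because the genes were chosen so. Among all 12053 genes tested, the areas did not overlap in 2755 (22.9%). Dgkb, a diacylglycerol kinase (log2 1.63), Inf2, a formin that acts on actin (1.73), and Arhgap15, a GTPase-activating protein (1.58), also passed with either MC library left out. A2ml1 (2.82) and Tmem215 (2.11) did not pass without MC CTRL (adjusted p = 0.0647 for A2ml1), and Zbtb20, a zinc finger transcription factor (2.30), did not pass without MC DTA (adjusted p = 0.0673).

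Genes lower in the MC included a neuropeptide, surface proteins and activity-dependent genes. Grp, gastrin-releasing peptide, stood at 148.6 and 133.2 CPM in PFC CTRL, 68.9, 158.4 and 157.8 CPM in PFC DTA, and 8.89 and 12.3 CPM in the MC (log2 -3.70 ± 0.33 SE, adjusted p = 0.00029). Cd24a, a surface glycoprotein, was at 18.7 to 54.6 CPM in the PFC and at 1.37 and 3.74 CPM in the MC (log2 -3.91 ± 0.49, adjusted p = 0.0022). Gadd45g, a gene induced by activity and stress, was at 572 to 680 CPM against 81.2 and 121.8 CPM (log2 -2.65 ± 0.20, adjusted p = 1.32e-05). Tenm2, a teneurin, and Pcdh17, a protocadherin, both adhesion proteins, had log2 differences of -2.19 and -2.19. Kcnab1, a beta subunit of potassium channels (-2.30), St6galnac5, a sialyltransferase (-2.29), Aldh1a3, an enzyme of retinoic acid synthesis (-2.23), and Ngb, neuroglobin (-2.22), were further down the same list. All 9 of these genes passed with either MC library left out.

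**Figure D3:**
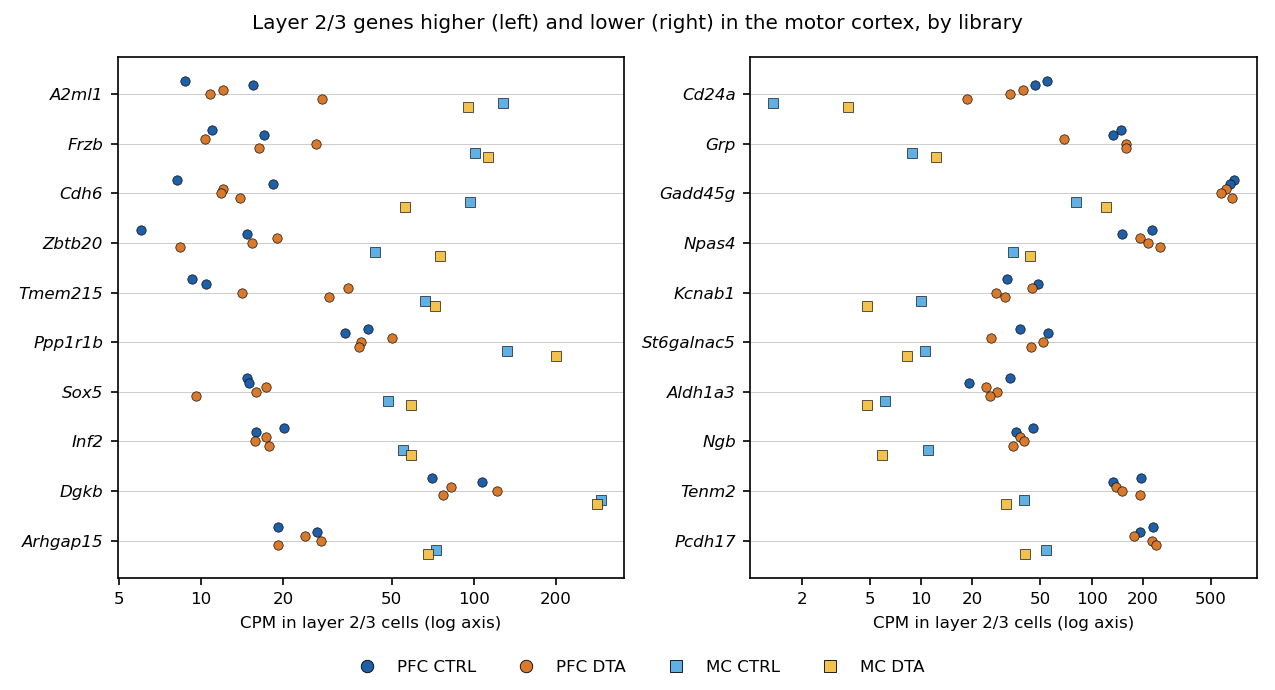
CPM in layer 2/3 cells (x axis, log scale) of the 10 genes with the largest fold change each way between the areas (y axis), among genes past the threshold. Each point is 1 library, circles are PFC and squares MC, and in every row the squares lie apart from the circles because the genes were chosen so, as at 100.8 and 112.7 CPM of Frzb against 10.3 to 26.3 CPM.

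By group, the listed upper-layer identity genes were more often higher than lower in the MC. Of 27 tested, 8 were higher (Dgkb, Rasgrf2, Pou3f2, Agmat, Cux1, Enpp2, Pou3f1 and Stard8) and 2 were lower (Matn2 and Syt17), with a median log2 of 0.38 against 0.00 over all genes. Of all genes tested, 2.53% were higher and 1.9% lower. Cux1, the homolog of Cux2, stood at 153.5 and 133.3 CPM in the MC and at 39.0 to 87.9 CPM in the PFC (log2 1.49 ± 0.24 SE, adjusted p = 0.0081). Pou3f2, the transcription factor BRN2, was at 96.7 and 73.4 CPM against 33.5 to 55.1 CPM (log2 1.18 ± 0.18, adjusted p = 0.0019). Rasgrf2 was at 238 and 247 CPM against 121 to 148.2 CPM (log2 0.88 ± 0.13, adjusted p = 0.0017). Of these 10 genes, Dgkb alone passed with either MC library left out. Among genes listed for area identity, 1 of 20 was higher in the MC, Emx2 (2.48), against the same 2.53% of all genes. On the lower side were 4, the neuropeptide gene Grp, Lmo4 (-0.89), Wnt7b (-1.72) and Epha7 (-0.72), against 1.9%. Of these 5, Grp alone passed with either MC library left out. Lmo4, a LIM-only transcription regulator, stood at 1406 to 1710 CPM in the PFC and at 732.7 and 911.8 CPM in the MC.

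Of 34 potassium and HCN channel genes, 7 were higher (among them Kcnc2, Kcnt1, Kcnj3, Kcnq3 and Hcn2) and Kcnab1 was lower, with a median log2 of 0.32. Over all genes, 2.53% were higher and 1.9% lower. Kcnc2, a fast potassium channel, was at 64.5 and 54.2 CPM in the MC against 18.8 to 27.6 CPM in the PFC (log2 1.27 ± 0.16 SE, adjusted p = 0.0005) and passed in both fits. Against the same 2.53% of all genes, 2 of 23 sodium and calcium channel genes were higher, Cacna1a and Scn4b. In the vesicle release list 4 of 19 were higher, Cplx1, Vamp1, Cplx2 and Slc17a6. Cplx1, a complexin, stood at 167.4 and 178.1 CPM in the MC and at 93.04 to 106 CPM in the PFC (log2 0.77 ± 0.13, adjusted p = 0.0030). None of these 6 passed in both fits. Of 29 receptors for modulators, Adra2a (1.43) was higher and Htr2c (-3.58), a serotonin receptor at 3.45 to 10.0 CPM in the PFC and 0.684 and 0.267 CPM in the MC, was lower, against 2.53% and 1.9% of all genes, and neither passed with either MC library left out. Of 13 glucocorticoid genes tested, 2 were higher in the MC, against 2.53% of all genes. These were the receptors of corticosteroids Nr3c1 (0.61) and Nr3c2 (1.08), and neither passed with either MC library left out. By sign, 6 genes of this list were higher and 7 lower, with a median log2 of -0.08.

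Adhesion and guidance genes differed in both directions. Of 59 tested, 6 were higher in the MC (Cdh6, Plxnd1, Unc5d, Robo2, Sema7a and Pcdh7) and 10 lower (Pcdh17, Tenm2, Pcdh8, Pcdh10, Pcdh19, Lrrtm1, Flrt3, Epha7, Efnb3 and Robo1), with a median log2 of -0.27. The shares over all genes were 2.53% higher and 1.9% lower. Unc5d, a netrin receptor, stood at 114.2 and 88.7 CPM in the MC and at 24.0 to 42.3 CPM in the PFC (log2 1.57 ± 0.19 SE, adjusted p = 0.00047). Robo2 and Robo1, receptors for Slit proteins, moved in opposite directions, with log2 differences of 0.99 ± 0.13 (adjusted p = 0.00069) and -0.72 ± 0.19 (adjusted p = 0.042). Of these 16 genes, 4 passed with either MC library left out (Cdh6, Pcdh17, Tenm2 and Unc5d). Among neuropeptides and secreted signals, Frzb and Npy were higher and Grp and Wnt7b lower. Npy, a peptide of inhibitory neurons, overlapped between areas, at 10.4 to 55.1 CPM in the PFC and 91.2 and 46.7 CPM in the MC. Pvalb, another transcript of inhibitory neurons, also passed (1.49). Neither Npy nor Pvalb passed with either MC library left out. The markers of inhibitory neurons summed to 81.4 CPM (CTRL) and 25.4 CPM (DTA) in the MC, within the PFC range of 29.3 to 109 CPM apart from the latter.

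Immediate early genes, which neuronal activity and tissue dissociation switch on within minutes, had a negative log2 difference (lower in the MC) in 21 of 27 cases and a positive one in 6. Of the 21, 4 passed (Npas4, Fos, Jun and Klf4), and of the 6, 0 passed. Among all genes tested, 1.9% passed on the lower side and 2.53% on the higher side. The list's median log2 was -1.31. Npas4, an activity-dependent transcription factor, stood at 225.7 and 149.8 CPM in PFC CTRL, 191.2, 214.2 and 251.7 CPM in PFC DTA, and 34.4 and 43.3 CPM in the MC (log2 -2.40 ± 0.21 SE, adjusted p = 2.93e-05). Fos was at 322.9 and 250.2 CPM in PFC CTRL, 286, 258 and 416.5 CPM in PFC DTA, and 56.1 and 92.7 CPM in the MC (log2 -2.05 ± 0.24, adjusted p = 0.00047). Both passed with either MC library left out, whereas Jun (-1.11) passed in neither fit and Klf4 (-1.47) did not without MC DTA. Summed over the whole list, the levels were 2791 to 5784 CPM summed in the PFC libraries and 2359 and 2354 CPM in the MC. As Npas4 and Fos are the immediate early genes that kept their call, the 250 bases before their start sites are shown, with the half-site of the cAMP response element in capitals (TGACG or, read on the other strand, CGTCA). The sequences are RefSeq's in build GRCm38.p6, written 5′ to 3′ on the gene's strand, Fos at chr12:85473640-85473889 (plus strand) and Npas4 at chr19:4989972-4990221 (minus strand).
Fos: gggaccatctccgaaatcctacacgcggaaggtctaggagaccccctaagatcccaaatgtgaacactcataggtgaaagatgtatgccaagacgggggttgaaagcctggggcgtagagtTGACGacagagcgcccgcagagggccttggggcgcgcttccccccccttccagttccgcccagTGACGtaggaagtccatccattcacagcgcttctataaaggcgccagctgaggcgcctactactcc
Npas4: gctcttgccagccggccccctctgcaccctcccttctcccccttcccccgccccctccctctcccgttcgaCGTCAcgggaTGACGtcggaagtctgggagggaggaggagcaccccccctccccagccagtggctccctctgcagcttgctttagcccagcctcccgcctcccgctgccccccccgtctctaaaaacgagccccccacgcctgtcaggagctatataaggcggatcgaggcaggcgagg
Fos has the half-site at 129 and 66 bases before its start and Npas4 at 179 and 169 bases before, with no overlap between matches. A half-site on either strand is present in 17.9% of the 27025 promoters of the same length (4827), in Klf4 once and in Jun not at all within this window. A match is a description of the letters and not of binding.

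Whether an area difference was of another size in layer 2/3 cells than in the other excitatory neurons of the same libraries was tested as an interaction, with the library as a block. It was higher in layer 2/3 cells for 73 of 12953 genes (0.564%) and lower for 77 (0.594%), together 150 genes (1.16%). The 9 genes given here, named from this test by their p, passed with either MC library left out, whereas of all 150 genes 95 passed without MC CTRL, 58 without MC DTA and 38 in both fits. Dgkb rose from 91.7 ± 21.8 CPM (SD, n = 5) in the PFC to 292.8 and 281.5 CPM in MC layer 2/3 cells, and in the other neurons it stood at 76.1 ± 16.4 CPM and at 116 and 101.3 CPM (interaction log2 1.06 ± 0.14 SE, adjusted p = 0.0004). Sox5 (1.20), Gucy1a1 (0.99), a subunit of soluble guanylate cyclase, and Tmem108 (0.93) also had the more positive area difference in layer 2/3 cells. For Gucy1a1 and Tmem108 the 2 classes went opposite ways, with Gucy1a1 at 108.4 ± 13.1 CPM in the PFC and 188 and 142 CPM in the MC in layer 2/3 cells and at 57.4 ± 12.9 CPM and 46.8 and 39.3 CPM in the others.

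In the other direction, Kcnk2 in layer 2/3 cells stood at 17.2 ± 4.797 CPM (SD, n = 5) in the PFC and 17.1 and 15.5 CPM in the MC, and in the other excitatory neurons at 70.9 ± 17.0 CPM in the PFC and 157 and 205 CPM in the MC (interaction log2 -1.48 ± 0.18 SE, adjusted p = 0.00025). Neurod6, a transcription factor of cortical excitatory neurons, was at 153 ± 19.4 CPM and 72.3 and 58.0 CPM in layer 2/3 cells, and at 222 ± 15.1 CPM and 171 and 163 CPM in the others (interaction -0.85 ± 0.11, adjusted p = 0.00025). Epha7, an ephrin receptor, was at 89.6 ± 20.5 CPM and 45.2 and 61.2 CPM in layer 2/3 cells and at 85.5 ± 11.1 CPM and 112 and 102 CPM in the others (interaction -1.08 ± 0.15, adjusted p = 0.0004). Slc35f1 (-1.30) and Pcdh10 (-0.71) completed the 5 named genes on this side. Lmo4 (-0.59), Pcdh17 (-0.67) and Cdh6 (1.25) also passed, with and without either MC library. Of the immediate early genes, Fos (-0.95, adjusted p = 0.020) and Dusp1 (-0.70, adjusted p = 0.0067) had the larger area difference in layer 2/3 cells, and neither passed without MC DTA, nor did Fos without MC CTRL (adjusted p = 0.143). The other excitatory neurons were taken as 1 class. Deep-layer cells were 343 of 592 and 878 of 2623 of them in PFC CTRL and 165 of 478, 606 of 1211 and 403 of 1036 in PFC DTA. In the MC they were 529 of 1495 (CTRL) and 171 of 507 (DTA). Cells that failed the rule only through Rorb were 18 of 592 and 76 of 2623 of the other neurons in PFC CTRL. In PFC DTA they were 11 of 478, 131 of 1211 and 64 of 1036. In the MC they were 164 of 1495 (CTRL) and 143 of 507 (DTA). The part of this mix in the differences was not tested.

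**Figure D4:**
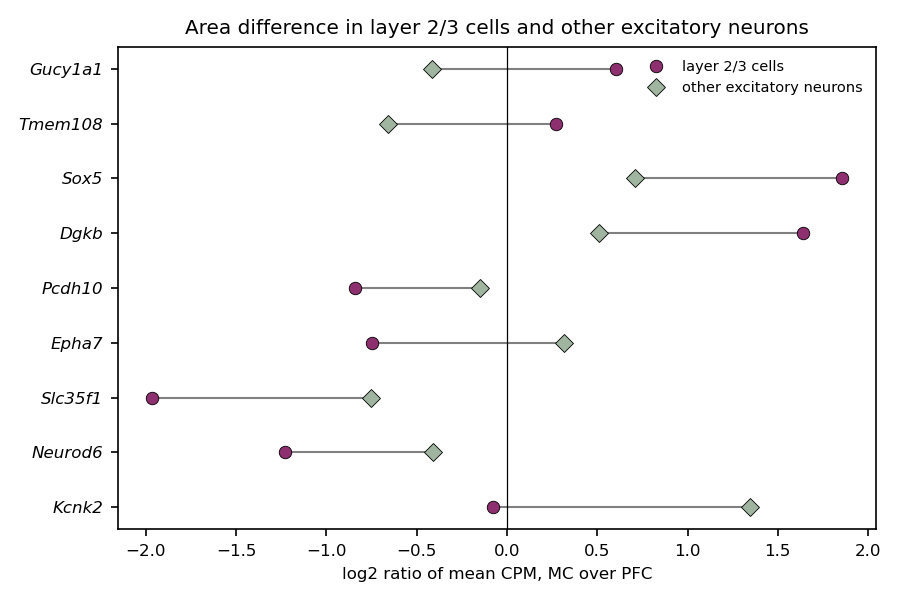
Log2 ratio of mean CPM in the MC over the PFC (x axis, with 0.5 CPM added) in layer 2/3 cells (circles) and in the other excitatory neurons (diamonds) for 9 genes named from the interaction test (y axis). The line between the symbols of a gene is the difference between the classes, largest among the 9 for Kcnk2 (-1.48) in the fitted values.

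The genotype comparison asked whether layer 2/3 cells of the PFC differ between mice with and without the toxin allele, which targets photosensitive ganglion cells that have Brn3b. In edgeR's quasi-likelihood test 0 of 11714 genes passed an adjusted p of 0.05 (0.0%), and 230 (1.96%) had an unadjusted p under 0.05. DESeq2 also called 0 genes. The 2 CTRL and 3 DTA libraries did not overlap in 1774 genes (15.1%). Leaving out each library in turn gave 0 to 8 calls, the 8 without PFC CTRL replicate 1, and 18 genes passed with no filter on low counts. A p that misses the threshold does not show that the genotypes are alike.

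The 5 genes with the smallest p on the higher side were Penk, Smpd3, Hspa1a, Grm2 and mt-Nd4l, each with an adjusted p of 0.9998. Penk stood at 36.1 and 31.9 CPM in PFC CTRL and at 56.9, 66.6 and 68.5 CPM in PFC DTA (log2 0.98 ± 0.19 SE). Smpd3, a neutral sphingomyelinase, was at 78.1 and 63.9 CPM against 115.4, 132.1 and 162.9 CPM (log2 1.005 ± 0.20). Neither gene overlapped between genotypes, but both were picked for their small p, and 15.1% of all genes did not overlap. The MC libraries, which did not enter this fit, had Penk at 36.5 CPM in CTRL and 69.2 CPM in DTA (log2 ratio 0.92, exact 95% interval 0.63 to 1.22 for counting error only) and Smpd3 at 96.7 and 200.6 CPM (1.05, interval 0.88 to 1.23). With 1 library per genotype the MC allows no test. When all 7 libraries were fitted with area as a term, Penk had an adjusted p of 0.0544 (log2 0.97) and Smpd3 of 0.0544 (1.03). Without the filter on low counts both were among 18 genes that passed edgeR's test in the PFC. The adjusted p was 0.0075 for Penk and 0.0011 for Smpd3. Hspa1a (0.0030), mt-Nd4l (0.00014), Sst (0.00028) and Npy (7.5e-05) passed in the same fit, so it did not single out Penk and Smpd3.

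Grm2, a metabotropic glutamate receptor, was at 13.1 and 12.7 CPM in PFC CTRL and 19.0, 27.2 and 30.2 CPM in PFC DTA (log2 1.10 ± 0.26 SE), and at 12.3 (CTRL) and 23.2 CPM (DTA) in the MC (0.92, interval 0.41 to 1.43). Hspa1a, an inducible heat shock protein, was at 49.2 and 32.8 CPM against 70.6, 87.8 and 74.3 CPM, and at 33.1 and 38.5 CPM in the MC (0.22, interval -0.12 to 0.56). The mitochondrial gene mt-Nd4l was at 63.9 and 35.3 CPM against 84.4, 115.1 and 103.5 CPM, and at 80.04 and 100.96 CPM in the MC (0.33, interval 0.12 to 0.55). Without PFC CTRL replicate 2 the PFC log2 difference was 0.67 for mt-Nd4l and 0.66 for Hspa1a, against 1.11 and 0.99 with all libraries, and without PFC CTRL replicate 1 mt-Nd4l passed (1.62, adjusted p = 0.0242). Grm2 and mt-Nd4l did not overlap between genotypes in the PFC, nor did Hspa1a. They too were picked for their small p, and 15.1% of all genes did not overlap.

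On the lower side, Sst and Npy led, both peptides of inhibitory neurons, which the rule leaves out. Sst stood at 27.3 and 59.7 CPM in PFC CTRL and at 13.8, 16.1 and 20.4 CPM in PFC DTA (log2 -1.31 ± 0.29 SE), and at 33.3 and 7.48 CPM in the MC. Npy was at 27.9 and 55.1 CPM against 19.0, 10.4 and 19.4 CPM (log2 -1.43 ± 0.33). The log2 difference of Sst was -0.66 and that of Npy -0.87 without PFC CTRL replicate 2, and Sst passed without PFC CTRL replicate 1 (-1.69, adjusted p = 0.0176). The 11 markers of inhibitory neurons summed to 36.1 and 109 CPM in layer 2/3 cells of PFC CTRL and to 29.3 to 35.4 CPM in PFC DTA. Of these markers, 4 were at 0 in PFC CTRL replicate 1 (Dlx2, Lhx6 and Adarb2 among them), 1 in PFC CTRL replicate 2 and PFC DTA replicate 2 (Dlx2), 6 in PFC DTA replicate 1 and 2 in PFC DTA replicate 3. The 10 markers of microglia summed to 81.4 and 105 CPM in PFC CTRL and 37.2 to 63.7 CPM in PFC DTA. The part of RNA from such cells in these values was not tested. Ttc8, a component of the BBSome of cilia, was at 54.1 and 70.4 CPM against 37.9, 30.01 and 41.9 CPM (log2 -0.76 ± 0.21), and at 71.6 and 32.6 CPM in the MC. Klhdc8b was at 86.9 and 89.6 CPM against 49.96, 63.7 and 51.7 CPM (log2 -0.62 ± 0.17). Diablo, a mitochondrial activator of caspases, was at 49.2 and 48.3 CPM against 43.1, 21.2 and 27.6 CPM (log2 -0.80 ± 0.25).

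**Figure D5:**
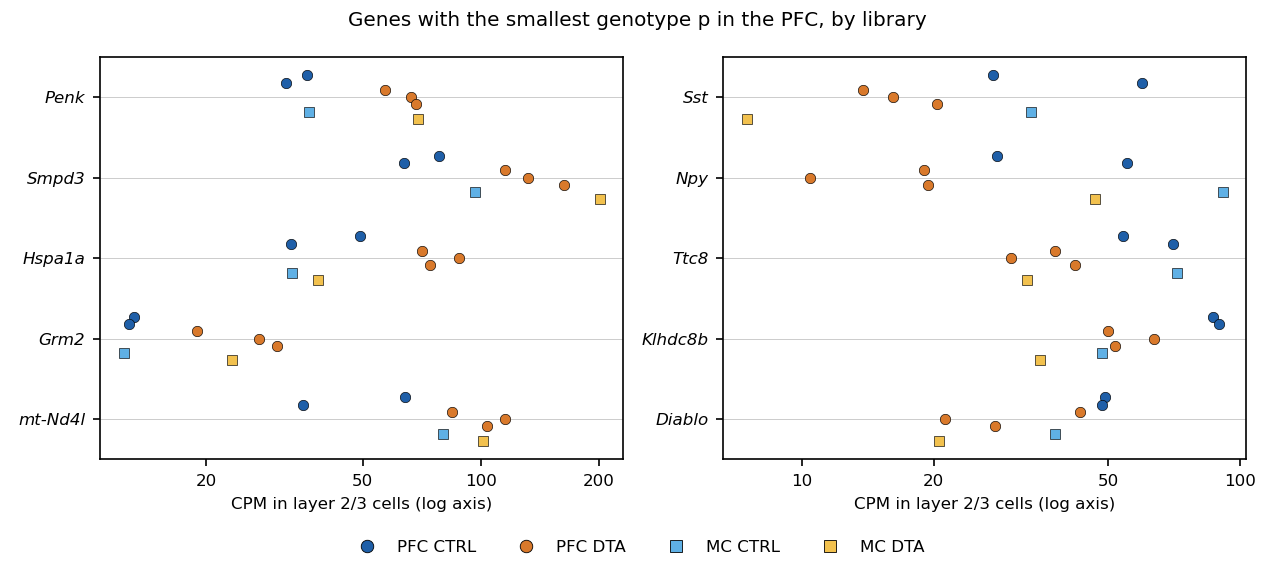
CPM in layer 2/3 cells (x axis, log scale) of the 5 genes with the smallest p each way in the PFC genotype comparison (y axis), none of which passed the threshold. Each point is 1 library, circles are PFC and squares MC, and Penk lies at 31.9 to 36.5 CPM in the 3 CTRL libraries of both areas and at 56.9 to 69.2 CPM in the 4 DTA libraries.

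No gene list held a gene that passed in the genotype comparison. Of 27 upper-layer identity genes, 21 had a positive log2 difference and 6 a negative one, with a median of 0.18 against 0.00 over all genes, and 5 did not overlap between genotypes, where 15.1% of all genes did not. Of 27 immediate early genes 5 were positive and 22 negative, with a median of -0.16, and the only one with an unadjusted p under 0.05 was Klf4 on the positive side (log2 0.84 ± 0.27 SE, adjusted p = 0.9998). Clock genes were split 10 to 11 with a median of -0.09, and the smallest p belonged to Dbp (log2 -0.35). Glucocorticoid genes were split 11 to 2 with a median of 0.08. Heat shock genes were split 11 to 4 with a median of 0.19, and 5 of 15 did not overlap, against the same 15.1% of all genes. Gabrd stood at 61.7 and 62.2 CPM in PFC CTRL and at 79.3, 80.6 and 80.5 CPM in PFC DTA (log2 0.40 ± 0.17, adjusted p = 0.9998). Npy1r, a receptor of neuropeptide Y, was at 30.6 and 29.7 CPM against 41.3, 39.2 and 44.1 CPM (log2 0.50 ± 0.20, adjusted p = 0.9998). Ntng1, netrin-G1, was at 15.8 and 15.5 CPM against 29.3, 24.1 and 32.3 CPM (log2 0.89 ± 0.25, adjusted p = 0.9998).

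Whether the genotype difference was of another size in layer 2/3 cells than in the other excitatory neurons was tested in the same way. Of 12665 genes 1 passed, higher in layer 2/3 cells (0.0079%), and 0 were lower (0.0%), while 295 (2.33%) had an unadjusted p under 0.05. The gene was Pdyn, the precursor of the dynorphin opioid peptides. In layer 2/3 cells it stood at 33.9 and 23.2 CPM in PFC CTRL and at 24.1, 46.5 and 23.2 CPM in PFC DTA, and the genotypes overlapped. In the other excitatory neurons it was at 24.4 and 13.1 CPM in PFC CTRL and at 5.23, 11.9 and 5.80 CPM in PFC DTA, with DTA below CTRL. The interaction was 1.33 ± 0.23 (log2, SE; adjusted p = 0.0163). It did not pass in a test that is not robust (adjusted p = 0.0784), without PFC CTRL replicate 1 (0.112), without PFC DTA replicate 3 (0.185) or with at least 3 of the 4 markers required (1.0). Leaving out each library gave 0 to 32 calls over all genes, the 32 without PFC CTRL replicate 2. In the MC, layer 2/3 cells had Pdyn at 10.3 CPM in CTRL and 34.7 CPM in DTA (log2 ratio 1.76, interval 1.26 to 2.28 for counting error only).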

How the data were processed

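Single cells of 7 libraries were measured by droplet RNA sequencing. The deposited tables hold raw UMI counts per gene and cell, and per the submitters' processing notes the authors' tools were Seurat and Cell Ranger 3.0.2, with build mm10. No cell in the tables had fewer than 501 genes. The cells, gene lists and tests were chosen with earlier results of these data known. UMI counts of the layer 2/3 cells were summed per library and tested with edgeR 4.0.16 (quasi-likelihood, robust, TMM, filter at 10 counts, Benjamini-Hochberg threshold 0.05), checked on simulated data. DESeq2 1.42.0 and other settings were alternatives. Genes were named by rule: predicted genes left out, the 10 largest fold changes each way among genes past the threshold at 20 CPM or more with groups apart, or the 5 smallest p each way where fewer than 2 passed and in interactions, and 2 members of each list. List genes beyond these were chosen after their values were seen. Shares were tested by exact permutation over libraries. Intervals are exact and cover counting error only. Replicate numbers were not used to pair the libraries, and whether they do pair them could not be decided (sensitivity section). Opn4 and Pou4f2 (Brn3b) were not analysed here, so the labels were not checked against the targeted cells. A few genes that the rule or the lists would name are not reported here.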

Additional observations from a re-analysis of the deposited data

Results flagged for a closer look

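The following differed between layer 2/3 cells and the other excitatory neurons of the same libraries by the test of the difference itself (edgeR's quasi-likelihood test of the interaction). For the area difference (log2 MC over PFC, layer 2/3 minus other), the values were Kcnk2 -1.48, Slc35f1 -1.30, Sox5 1.20, Epha7 -1.08, Dgkb 1.06, Gucy1a1 0.99, Tmem108 0.93, Neurod6 -0.85 and Pcdh10 -0.71, and all 9 passed without either MC library. For the genotype difference in the PFC, the value was Pdyn 1.33, which did not pass without PFC CTRL replicate 1 or without PFC DTA replicate 3.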

How the results depend on the processing

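The 534 area genes kept their direction under every alternative in which they were tested. Counts that moved by over 1.5 times were as follows. For the PFC genotype, 18 genes passed with no filter on low counts, and 0 to 8 with each library left out. For the area, 858 passed with no filter, 74 with a term for deep and shallow libraries, in which MC DTA was alone in the deep set, and 75 to 616 with each library left out (77 without MC DTA and 337 without PFC CTRL replicate 2). For the area difference against other excitatory neurons, 465 passed with no filter and 87 to 203 with each library left out. For the genotype difference against other excitatory neurons, 0 passed with a test that is not robust, 4 with no filter, 4 with doublets left out, 0 with at least 3 of the 4 markers, and 0 to 32 with each library left out. The genotype difference in the thinned share was 0.43 percentage points at 2000 UMIs, 1.86 at 1500, 2.38 at 3000, 1.73 with all UMIs, 1.56 with at least 1 marker, -0.40 as a share of all cells, and -0.81 to 1.64 with each library left out. The cause was not tested. With 2 pairs, deviations of same-numbered PFC libraries correlated at 0.066 and 0.063. The deviations of the 2 CTRL libraries from their mean mirror each other, so these values cannot decide whether replicate numbers pair libraries. The fit with the replicate block called 1 genotype gene. DESeq2 called 544 area genes, of which 49.3% were higher, against 57.1% with edgeR. Depth limits the comparisons most in PFC DTA replicate 1, with 580426 UMIs in layer 2/3 cells.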
